A study of Mus musculus with 4 samples.

Results

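Clusters 2 and 4 as a pair held more untreated cells than any other chromatin cluster of PB3, a tumor line from mouse mammary gland. Their members were all cells that carry the number 2 or 4 in the deposited clustering, 6530 of 43782 cells. Cluster 2 held 3482 cells and cluster 4 held 3048. The clustering rests on accessible peaks over all 4 libraries, and no marker genes could be checked here, so both clusters keep their numbers. The label of largest untreated state held within each untreated library, where cluster 2 (multiome) or cluster 4 (scATAC) was the largest cluster, followed by cluster 3 with 18.4% and 17.5%. Pooled, the clusters made up 32.5% of the untreated cells in scATAC and 35.5% in multiome.

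All libraries came from PB3 cells grown in DMEM/F12 medium with antibiotics, L-glutamine and non-essential amino acids. The untreated group received no drug. The eribulin group was exposed to 500 nM eribulin for 72 h and left for 48 h, for 4 rounds in all. Each group was profiled in run 1 by ATAC-seq of single cells (scATAC) and in run 3 by the ATAC component of a multiome assay on single nuclei, with 1 library for each. A second library of any group was not analysed here, so no test between groups or between cells was made, and the sources used here do not say whether the runs used the same cultures. A single cell line stands behind every library.

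ATAC-seq uses the Tn5 transposase to cut DNA where chromatin is open, and cuts inside peaks are counted per cell. Fragments that span a nucleosome are longer than those from nucleosome-free DNA, so fragment lengths carry information on packaging that the peak clustering does not use directly. Lentiviral barcodes are random sequences inserted into the genome of founder cells and passed to their descendants, so cells with the same barcode are read as a lineage. Eribulin binds the ends of microtubules and halts cells in mitosis.

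Each lineage barcode was 48 bases long, with a short part of 14 bases, the linker TGGT at bases 15 to 18 and a long part of 30 bases. The barcodes printed here, 5′ to 3′ with the linker in capitals, carry the main lineage results. The first 2 had most cells in cluster 2 or the joint highest share there, the next 3 were cluster 2 lineages with most eribulin cells, and the last 2 lay almost wholly in other clusters.
22-18173: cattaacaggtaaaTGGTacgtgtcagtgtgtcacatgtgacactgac
71-53519: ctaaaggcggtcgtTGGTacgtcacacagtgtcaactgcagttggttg
39-41529: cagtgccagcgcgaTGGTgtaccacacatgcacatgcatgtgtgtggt
55-99383: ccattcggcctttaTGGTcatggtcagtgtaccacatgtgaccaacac
55-37135: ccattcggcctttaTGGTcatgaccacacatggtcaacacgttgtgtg
30-58918: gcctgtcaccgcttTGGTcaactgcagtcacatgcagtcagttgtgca
22-14328: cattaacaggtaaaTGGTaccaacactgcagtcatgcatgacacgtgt
Barcodes 22-18173 and 22-14328 share their short part and differ in the long part, and they mark lineages in different clusters. Barcodes 55-99383 and 55-37135 share a short part too, and both lay mainly in cluster 2. Among the 125 barcodes described below, the most similar pair still differed at 14 bases, so these names rest on sequences that are far apart.

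Cut sites in peaks numbered 84615925 over the 9361 cells of untreated scATAC and 61629245 over the 9583 cells of untreated multiome. The eribulin libraries held 16724 scATAC and 8114 multiome cells, with 127710435 and 49446970 cut sites. Median cut sites per cell ran from 4229.5 in eribulin multiome to 7440 in untreated scATAC. A single lineage barcode was called in 4772 untreated and 1391 eribulin multiome cells, but in only 29 untreated and 84 eribulin scATAC cells. Lineage values therefore come from multiome unless scATAC is named. The untreated and eribulin libraries shared 123 droplet barcodes in multiome and 215 in scATAC, carried by 48 and 63 untreated members, and the untreated libraries of both protocols shared 1. Intervals below are exact 95% binomial (Clopper-Pearson) intervals, which cover counting error only, and where nothing was counted the limit is what 3 counts would allow.

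Untreated cells of clusters 2 and 4 were divided between them by protocol. In untreated multiome, cluster 2 held 34.6% of cells (33.6 to 35.5%) and cluster 4 held 0.960% (0.775 to 1.18%). In untreated scATAC, cluster 4 held 31.2% (30.3 to 32.2%) and cluster 2 held 1.35% (1.12 to 1.60%). Each cluster was thus large in one untreated library and small in the other. Pooled, the clusters held 35.5% (34.6 to 36.5%) of multiome and 32.5% (31.6 to 33.5%) of scATAC cells, intervals that do not overlap. After eribulin they held 0.530% (0.384 to 0.713%) of multiome and 0.221% (0.156 to 0.305%) of scATAC cells. The eribulin shares lay far below the untreated ones in both protocols, with 1 library behind each. Clusters 3, 6, 8 and 9 had this too, so it was not particular to clusters 2 and 4. In multiome they held 18.4, 14.7, 11.7 and 11.6% of untreated cells and 0.173, 0.320, 0.320 and 0.0616% of eribulin cells. In scATAC the shares were 17.5, 15.2, 13.5 and 13.0% of untreated cells and 0.0837, 0.0419, 0.0718 and 0.0120% of eribulin cells.

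**Figure D1:**
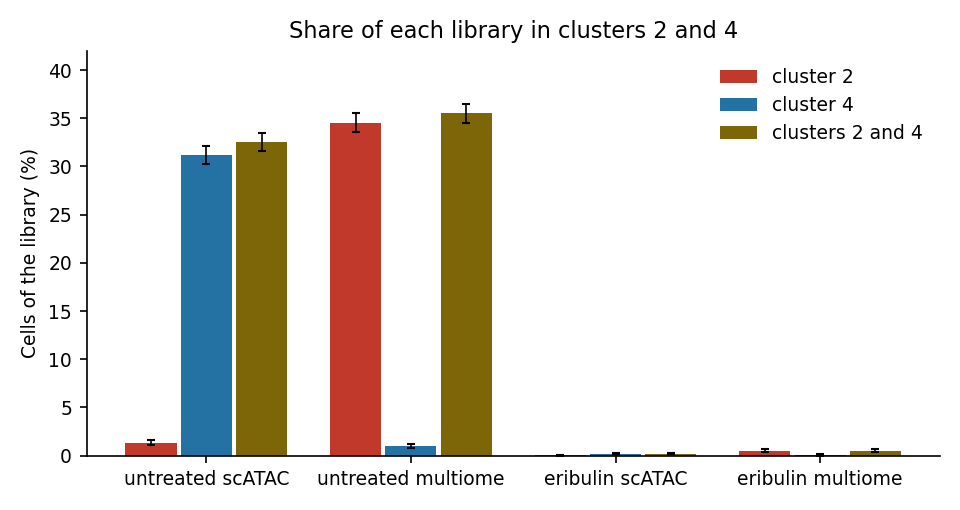
Share of each library's cells (y axis, percent) in cluster 2, cluster 4 and both, with exact 95% binomial intervals as error bars and 1 library per group on the x axis. Untreated members fall mainly in cluster 4 in scATAC and in cluster 2 in multiome, and eribulin cells are nearly absent from both.

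On the deposited UMAP, a 2-axis map without unit, members formed a long band that ran from left to right among the untreated cells. Centres do not single out this pair. The centre of the scATAC cells of cluster 4 was 2.02 map units from that of the multiome cells of cluster 2, but 0.369 from that of cluster 14 and 0.803 from that of cluster 3. Among the 15 nearest untreated scATAC cells of each cluster 2 multiome cell, 68.6% belonged to cluster 4, which held 31.2% of that library. Only 4.37% belonged to cluster 2. In the other direction, 49.4% of the nearest multiome cells of a cluster 4 scATAC cell were in cluster 2, which held 34.6% of that library, and 3.16% were in cluster 4. By number of cells, the nearest cells across protocols were thus more often in the partner cluster than in the small cluster of the same number.

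Relative to their shares of the library the order was the opposite. Beside cluster 2 multiome cells, scATAC cells of cluster 4 were 2.20 times as frequent as in the library and those of cluster 2 were 3.25 times as frequent. Beside cluster 4 scATAC cells the ratios were 1.43 for cluster 2 and 3.29 for cluster 4. Clusters 3, 6, 8 and 9 were large in both protocols. For scATAC cells beside multiome cells of their own number, their ratios were 1.45, 3.39, 1.73 and 3.39. The map was made from the same components as the clusters, so these shares describe the deposited analysis and are no independent measure.

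**Figure D2:**
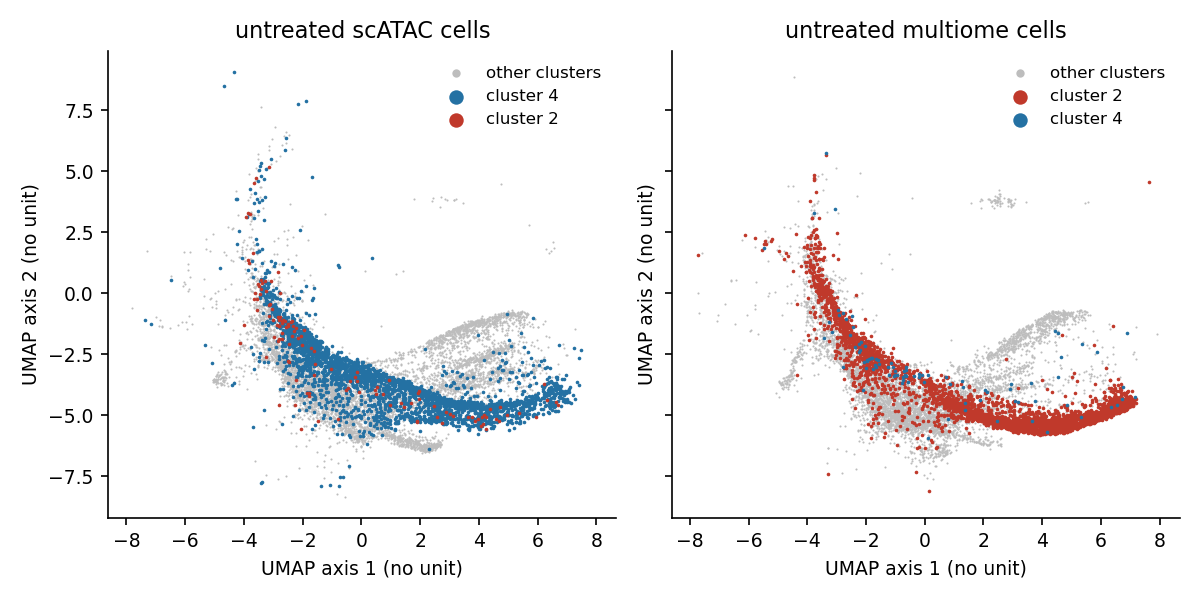
Untreated cells on the deposited UMAP (both axes without unit), by library, with the members of clusters 2 and 4 coloured over the other untreated cells. Members form 1 band in both libraries, mostly numbered 2 in multiome and 4 in scATAC.

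Position along the band followed depth. When the multiome cells of cluster 2 were divided into 5 equal parts from left to right, the median cut sites per cell were 2672, 4476, 4963.5, 6559 and 10144. In the scATAC cells of cluster 4 the same medians were 4222, 6167.5, 7998.5, 10111.5 and 15277. Depth thus increased at every step to the right in both. Spearman's rho between the first map axis and cut sites was 0.76 over 3311 cluster 2 multiome cells and 0.73 over 2921 cluster 4 scATAC cells. Other untreated clusters had similar values, from 0.55 to 0.78 in clusters 3, 6, 8, 9 and 14 over both libraries, but the small cluster 16 had negative ones. Cells of 1 library are not independent, and these correlations are descriptions. The share of called cells that belonged to barcodes with most of their cells in cluster 2 stayed between 65.7% and 72.2% in the 5 parts of cluster 2. Single lineages had different places along the band. The 20 cells of 18-99249 in the cluster had a median of 5.21 on the first axis, near the right end. Their median of 8499 cut sites was also the highest among the 46 barcodes with at least 10 cells in the cluster. The lowest, 3404, was that of 13-72181, which had a median of -1.70 on the first axis. The part of depth in the places of lineages was not tested.

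Members had longer fragments than the rest of their own library. The nucleosome signal divides a cell's mononucleosome-length fragments by its nucleosome-free ones. In untreated multiome its median was 0.983 (quartiles 0.892 and 1.08) over the 3311 cells of cluster 2 and 0.870 (0.790 and 0.964) over the 6180 cells outside both clusters. In untreated scATAC it was 1.14 (1.05 and 1.22) over the 2921 cells of cluster 4 and 1.04 (0.962 and 1.12) over 6314 other cells. The difference of medians was 0.114 for cluster 2 in multiome and 0.0961 for cluster 4 in scATAC, so it had the same direction and a similar size in both protocols. The quartile ranges overlapped. A random cluster 2 multiome cell had the higher signal in 71.1% of pairs with another cell, and a cluster 4 scATAC cell in 69.4%.

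Among all clusters with at least 50 cells, clusters 4 and 2 had the highest and second highest median nucleosome signal of 8 in scATAC, followed by cluster 14 at 1.08. In multiome they had the next highest of 9, after cluster 15 at 1.27, and the next was cluster 8 at 0.906. The cells in the cluster that is minor in a library had the same direction. The 92 multiome cells of cluster 4 had a median of 0.931, and the 126 scATAC cells of cluster 2 had 1.13.

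The gene activity total counts fragments over gene bodies and upstream promoters, and it is given here per 100 cut sites in peaks. This ratio still varied with depth, as given below. Its median was 102 (quartiles 97.9 and 106) in cluster 2 and 95.6 (92.3 and 99.3) in other cells of untreated multiome. In untreated scATAC it was 101 (97.2 and 105) in cluster 4 and 95.8 (92.6 and 99.4) in other cells. Members had the higher value in 77.5% of pairs in multiome and in 74.0% in scATAC. Of the cells of cluster 2 in multiome, 85.9% lay above the median of the other cells, as did 82.3% of the cluster 4 cells in scATAC. Gene activity thus separated members from other cells somewhat more than the nucleosome signal did in both protocols. Values of single genes were not analysed here, so which genes carry this excess is not given.

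Both differences were present at all depths. Cluster 2 had a median of 5376 cut sites in multiome and the other cells 5113. Cluster 4 had 8204 in scATAC and the other cells 7190.5. Within each of 4 equal depth bins of the untreated libraries, members had the higher median for both measures. In the shallowest bin of multiome the nucleosome signal was 0.923 in cluster 2 and 0.831 in other cells, and in the deepest bin it was 1.01 and 0.880. For cluster 4 in scATAC the medians were 1.11 and 1.03 in the shallowest and 1.15 and 1.06 in the deepest bin. Weighted over 10 depth bins, the difference was 0.112 for cluster 2 in multiome and 0.0938 for cluster 4 in scATAC, close to the values over all depths. In cluster 2 of multiome, gene activity per 100 cut sites went from 98.9 in the shallowest of 4 bins to 104 in the deepest. In other cells it went from 94.3 to 96.6. From the left to the right of the 5 parts of the band, cluster 2 medians increased from 0.930 to 1.05 for nucleosome signal. For gene activity they increased from 97.7 to 105, and the part of depth was not tested.

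**Figure D3:**
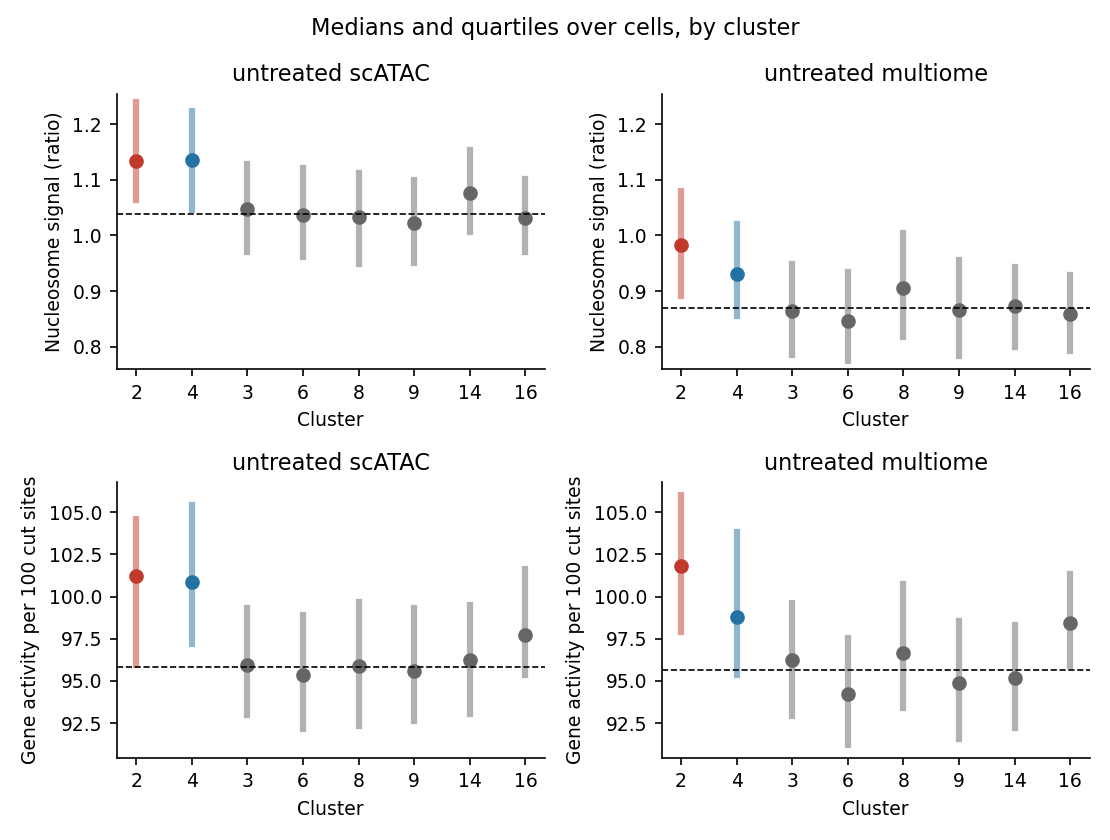
Nucleosome signal (a ratio) and gene activity per 100 cut sites in untreated cells, as the median (point) and quartiles (line) over cells of a cluster, by library. Clusters 2, 4, 3, 6, 8, 9, 14 and 16 are drawn, and cluster 15 is not. The dashed line marks the median of all untreated cells of the library outside clusters 2 and 4. The medians of clusters 2 and 4 lie above that line in each panel.

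The share of cells in the clusters itself moved with depth. Cluster 2 held 30.7% of the shallowest and 36.5% of the deepest of these bins of untreated multiome, and cluster 4 held 26.0% and 36.3% of those of scATAC. The part of depth in the shares was not tested further. Enrichment at transcription start sites, the ratio of cuts there to cuts in the flanks, hardly differed. Its median was 5.002 in cluster 2 and 5.019 in other multiome cells, and 4.959 in cluster 4 and 5.006 in other scATAC cells.

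Within a library, the clusters were not alike in depth. The 126 scATAC cells of cluster 2 had a median of 4392.5 cut sites against 8204 in cluster 4, and had more in 28.0% of pairs. The 92 multiome cells of cluster 4 had 6671.5 against 5376 in cluster 2. Cluster 4 was thus the deeper one in both libraries. Nucleosome signal differed by less in scATAC, where the medians were 1.13 and 1.14. In multiome it was 0.931 in cluster 4 and 0.983 in cluster 2, and gene activity per 100 cut sites was 98.8 and 102.

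A single barcode was called in 1722 of 3311 cells of cluster 2 (52.0%, 50.3 to 53.7%) and in 3000 of 6180 cells outside both clusters (48.5%, 47.3 to 49.8%). Clusters 3 and 14 had rates of 52.3% and 53.5%, while the rates were 47.3% in cluster 8, 41.1% in cluster 9 and 38.3% in cluster 16, so the rate of cluster 2 was not particular to it. Cells called doublet made up 8.49% (7.56 to 9.49%) of cluster 2 and 6.20% (5.61 to 6.83%) of the others. Cells called negative made up 36.6% against 42.8%. In scATAC a single barcode was called in 9 of 2921 cells of cluster 4 and in 1 of 126 cells of cluster 2.

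Cluster 2 held many lineages, and none of them made up a large part of it. Its 1722 called cells carried 271 of the 484 barcodes called in the library. The most frequent, 22-18173, made up 4.53% of them, and the 5 most frequent together 17.9%. The effective number of barcodes, the number of equally frequent ones that would give the same chance of drawing a barcode again, was 71.3. It was 80.3 in cluster 3 but 36.4 in cluster 8, 24.9 in cluster 9, 20.4 in cluster 6 and 3.15 in cluster 14. In a draw of 247 called cells, 110 distinct barcodes would be expected from cluster 2 and 134 from the other clusters together. Cluster 2 was thus second to cluster 3 in diversity among the 6 untreated clusters with at least 247 called cells, and less diverse than the other clusters pooled.

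Lineages were nevertheless distributed unequally between cluster 2 and the rest. Of all called untreated multiome cells, 36.1% (34.7 to 37.5%) lay in cluster 2. For each of the 125 barcodes with at least 10 called cells, the share in cluster 2 was set against the share among the cells of all other barcodes. The interval lay above that share for 45 barcodes (36.0% of those compared), below it for 39 (31.2%), and included it for 41. More than 50% of the cells lay in cluster 2 for 52 barcodes (41.6%), which are called cluster 2 barcodes in what follows. Since the percentages over all barcodes compared are these same counts, they describe the whole set. At least 1 cell of cluster 2 was present in 120 of the 125.

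The shares fell into a low and a high set with few between. Their median was 21.4%, with quartiles of 8.33 and 72.9% and a range from 0 to 91.7%. Below 10% lay 37 barcodes and above 80% lay 16, while 10 lay between 40 and 60%. No barcode had a share between 30.8 and 47.1%, which was the widest gap in the list. Of the 37 barcodes with at least 30 cells, 20 had shares from 2.04 to 20.0% and 17 had shares from 63.3 to 91.7%. At the threshold of 50%, barcode 20-92761 lay just inside with 10 of 19 cells and 37-63705 with 7 of 13. Barcode 95-81257 lay at the threshold with 12 of 24 and 34-58694 just outside with 8 of 17.

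**Figure D4:**
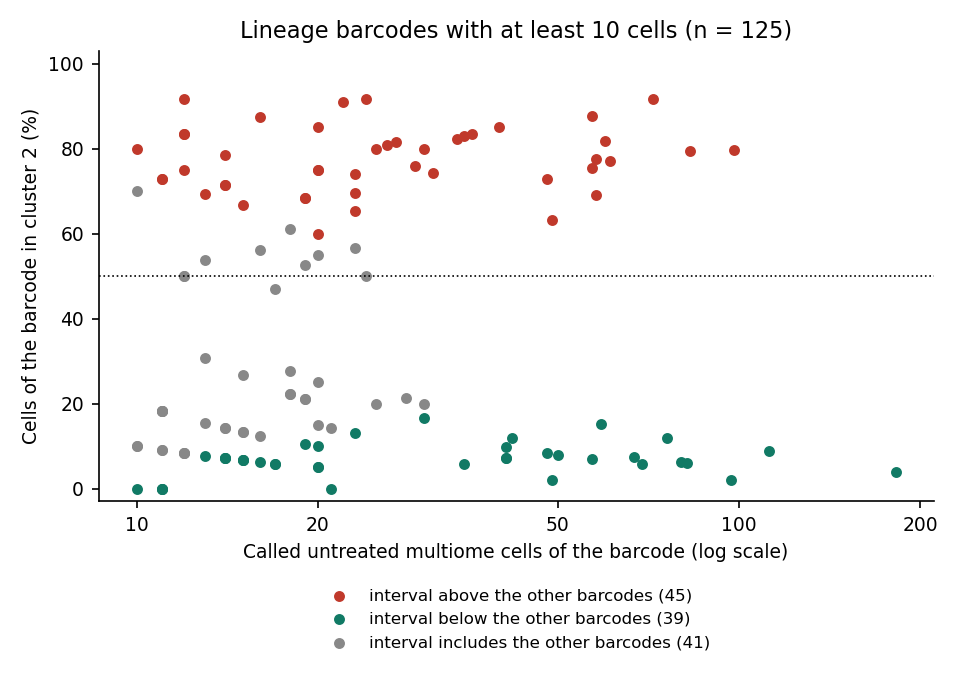
Share of each barcode's called untreated multiome cells that lay in cluster 2 (y axis, percent) against the number of its called cells (x axis, log scale), for 125 barcodes with at least 10 cells, coloured by whether the exact 95% interval lies above, below or around the share of all other barcodes. Barcodes with at least 30 cells lie either at 20.0% or lower or at 63.3% or higher, and the dotted line marks 50%.

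The 52 cluster 2 barcodes had 1532 called cells, of which 1174 (76.6%, 74.4 to 78.7%) lay in cluster 2. Those cells were 68.2% (65.9 to 70.4%) of the called cells of the cluster. The other 73 barcodes with at least 10 cells had 226 of 2112 cells there (10.7%, 9.41 to 12.1%), and barcodes with fewer cells had 322 of 1128 (28.5%, 25.9 to 31.3%). Barcodes were chosen for this share, so the contrast describes the choice and tests nothing. Of the called cells of the cluster, 13.1% thus carried one of the other 73 barcodes and 18.7% a barcode with under 10 cells, whose own distribution cannot be read reliably.

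The largest lineage of the cluster was 22-18173, with 78 of 98 cells in cluster 2 (79.6%, 70.3 to 87.1%). Barcode 71-53519 had 66 of 72 cells there (91.7%, 82.7 to 96.9%), and 51-57144 had 22 of 24 (91.7%, 73.0 to 99.0%). These were the joint highest shares among barcodes with at least 20 cells. Next came 11-12158 with 20 of 22 cells, 47-43673 with 50 of 57, and 39-41529 with 34 of 40. Barcode 95-65716 had 66 of 83 cells there and 28-22697 had 49 of 60. None of these 8 lineages was wholly inside the cluster.

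At the other end, 61-88872 had 0 of 21 cells in cluster 2 (which allows a share of up to 14.3%). Barcode 21-67560 had 1 of 49 there and 42 in cluster 9. Barcode 30-58918 had 2 of 97 there and 86 in cluster 6. The most abundant barcode of the library, 22-14328, had 7 of 182 cells there (3.85%, 1.56 to 7.76%) and 139 in cluster 14. Barcode 37-3897 had 1 of 20 there and 13 in cluster 8. Lineages poor in cluster 2 were thus concentrated in several different clusters, except 61-88872, whose most frequent cluster, 14, held 7 of its 21 cells.

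Cells of cluster 2 lineages that lay outside the cluster were spread over all other main untreated clusters. Of the 358 cells of cluster 2 barcodes that lay outside it, 28.2% were in cluster 3, 18.4% in cluster 6, 17.9% in cluster 9, 13.7% in cluster 8 and 8.10% in cluster 14. For the cells of all other barcodes outside cluster 2 the same shares were 30.5, 23.6, 14.6, 17.9 and 8.10%. These shares differed far less than those for cluster 4. Cluster 4 stood apart, with 34 of 358 cells (9.50%, 6.67 to 13.0%) against 16 of 2692 (0.594%, 0.340 to 0.963%).

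Lineage barcodes were not part of the clustering, but the class of cluster 2 barcodes was set by cluster 2. Of the 50 called multiome cells of cluster 4, which carried 39 distinct barcodes, 34 (68.0%, 53.3 to 80.5%) belonged to cluster 2 barcodes. In cluster 2 itself the share was 68.2%, and among the 3000 called cells outside both clusters it was 10.8% (9.71 to 12%). The rule for the class raises the share in cluster 2 and lowers the one outside both clusters, so neither is a neutral reference. Over all called multiome cells outside cluster 4, cluster 2 included, the share was 31.7% (30.4 to 33.1%). The small group of cluster 4 cells thus carried cluster 2 barcodes more often than the library as a whole. Cells of cluster 4 count as outside when a barcode is assigned to cluster 2. Barcode 40-47831 had most of them, with 3 cells in cluster 4 beside 40 of 58 in cluster 2. Barcodes 18-99249, 2-62822 and 51-85760 had 2 each, beside 20 of 25, 35 of 48 and 24 of 30 in cluster 2.

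The scATAC library, which holds the main body of cluster 4, did not show this makeup. Only 10 members had a called barcode there, and 2 of them (20.0%, 2.52 to 55.6%) carried cluster 2 barcodes, against 3 of 19 other called cells (15.8%, 3.38 to 39.6%). The interval for members lies below the 68.0 and 68.2% of the multiome cells of clusters 4 and 2, the latter raised by the barcode rule. Over the whole library, 5 of 29 called scATAC cells carried cluster 2 barcodes, against 32.1% of called cells in multiome. The low share in scATAC was thus not particular to members. The 2 barcodes were 39-41529 and 81-1900. Another 2 of the 9 called cells of cluster 4 carried 30-58918, of which 86 of 97 multiome cells lay in cluster 6. So few cells were called in scATAC that a difference in lineage between members and other cells of that library was not detectable at this depth.

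Inside cluster 2, cells of a lineage lay near each other only slightly more often than other pairs did. Among the 15 nearest called cells of the cluster on the map, 1.68% carried the same barcode, against 1.40% over all pairs, a ratio of 1.2 (1.32 with 5 nearest cells). The ratio was 1.32 in cluster 3, 1.62 in cluster 6, 1.42 in cluster 8, 1.43 in cluster 9 and 1.08 in cluster 14. Of these 6 clusters, only cluster 14 had a lower ratio than cluster 2. Of 46 barcodes with at least 10 cells in the cluster, 38 had a median distance to their own centre below 2.77 map units, the median distance of called cells to the cluster centre. Their centres lay 0.172 to 4.98 units from the cluster centre. An own centre is taken from the same cells, which shortens the distances to it. The count of 38 has no expected value beside it and is no measure of lineage order.

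The fragment features of the cluster were present in nearly every lineage that could be measured. Of 46 barcodes with at least 10 cells in cluster 2, the median nucleosome signal of those cells ran from 0.858 to 1.13, with a median of 0.990. It was above 0.870, the median of the other untreated multiome cells, in 45 of 46. The exception was 20-92761 at 0.858. Gene activity per 100 cut sites ran from 96.6 to 107 and was above 95.6 in 46 of 46. These cells were taken as members of a cluster with high medians, and no such count was made for other clusters. The counts thus describe the cluster over lineages with 10 to 78 cells in it, and no trait of the lineages.

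Cells of the same lineage were also compared inside and outside the cluster. This was possible for 10 barcodes with at least 10 cells in cluster 2 and at least 10 outside clusters 2 and 4. The nucleosome signal was higher inside for 10 of 10, with differences of medians from 0.0403 in 53-85524 to 0.148 in 55-37135 and a median difference of 0.107. For 22-18173 the medians were 1.00 over 78 cells inside and 0.884 over 18 outside. For 50-60095, which lay mostly outside, they were 0.960 over 10 cells inside and 0.862 over 102 outside. The median difference over these 10 barcodes was close to the 0.114 between cluster 2 and all other cells, and the part of lineage was not tested.

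Gene activity per 100 cut sites was higher inside for 9 of these 10 barcodes, with a median difference of 4.29 and a largest one of 8.54 in 55-37135. The exception was 40-47831, with 98.4 inside and 98.5 outside. Cut sites were higher inside for 4 barcodes and lower for 6, with a median difference of -1826, and the part of depth within lineages was not tested. Over all called cells the nucleosome signal differed more by position than by class of barcode, with slightly higher values for cluster 2 barcodes in both places. Its median was 0.982 in the 1174 cells of cluster 2 barcodes inside and 0.873 in their 324 cells outside both clusters, while cells of all other barcodes had 0.967 inside (548 cells) and 0.866 outside (2676 cells). Gene activity had the same order, at 101.8 and 96.1 for cluster 2 barcodes and 101.2 and 95.5 for the others. Cells inside cluster 2 thus had similar medians in both classes of barcode, above those of cells outside.

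**Figure D5:**
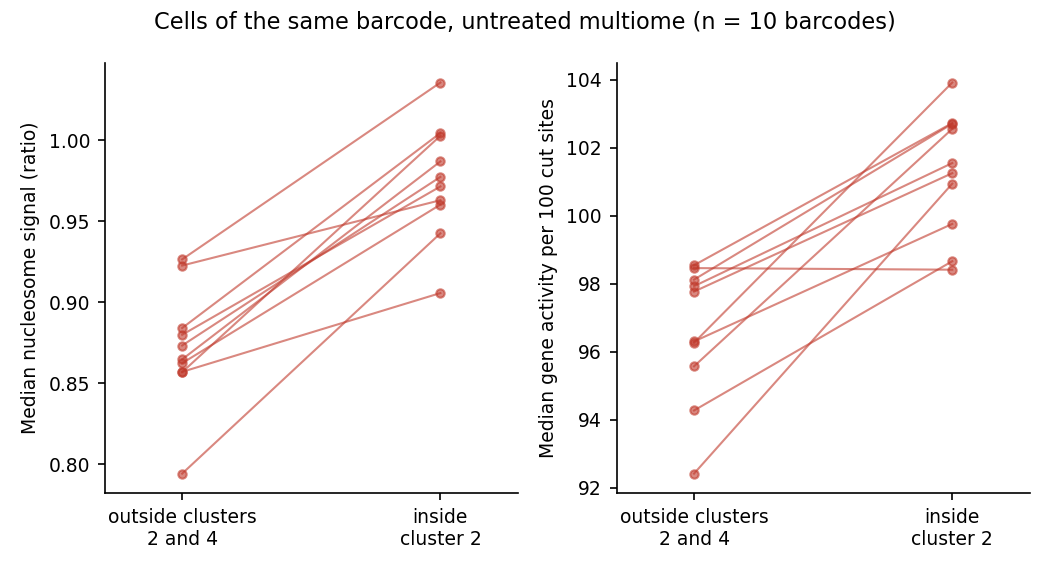
Median nucleosome signal (a ratio) and median gene activity per 100 cut sites of cells of the same barcode inside cluster 2 and outside clusters 2 and 4, for the 10 barcodes with at least 10 cells in each place, with a line joining the values of a barcode. The nucleosome signal is higher inside for 10 of 10 and gene activity for 9 of 10.

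After eribulin, few cluster 2 barcodes were seen. Of the 52, 9 (17.3%, 8.23 to 30.3%) had at least 1 called cell in eribulin multiome, as did 9 of the 73 others with at least 10 untreated cells (12.3%, 5.80 to 22.1%). The intervals overlapped, and the median number of untreated cells was 22.5 in the first set and 18 in the second. Cluster 2 lineages were thus not shown to be seen more or less often than the others. The 43 not seen had 10 to 98 untreated cells. A count of 0 in 1391 called cells allows a share of up to 0.216%. Of the 43, 41 had a larger share of the untreated called cells, the largest being 2.05% for 22-18173. Any barcode with more than 10 untreated cells lies above that limit, so the count of 41 follows from the minimum and is no measure of loss.

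By cells, cluster 2 barcodes went from 32.1% (30.8 to 33.4%) of called untreated multiome cells to 116 of 1391 called eribulin cells (8.34%, 6.94 to 9.92%). The other 73 barcodes went from 44.3% to 40.1% (37.5 to 42.7%). Another 717 called eribulin cells carried barcodes with under 10 untreated cells. A few lineages made up most of the cells in both sets. In the cluster 2 set, barcode 39-41529 had 81 of the 116 cells, and without it 35 cells (2.52%) were left. In the other set, 6-93034 had 403 and 55-23349 had 146 of the 558 cells. Without the first 155 cells (11.1%) were left, and without both 9 cells (0.647%), so the order of the sets rests on these lineages. In eribulin scATAC the cluster 2 barcodes had 11 of 84 called cells (13.1%, 6.72 to 22.2%), and these 11 carried 39-41529 as well.

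Barcode 39-41529 had 40 called cells in untreated multiome, 34 of them in cluster 2. Its 81 eribulin multiome cells made up 5.82% of called cells there. They lay in clusters 0 and 11 with 34 cells each, in cluster 12 with 7, in cluster 15 with 3 and in cluster 10 with 2, and 1 cell was in cluster 2. The lineage was thus found in other chromatin clusters after eribulin, with 1 exception. Barcodes 55-99383 and 55-37135 followed with 12 and 11 eribulin multiome cells. They had 30 of 36 and 43 of 57 untreated cells in cluster 2. The other 6 had 1 to 3 eribulin cells each and were 75-79440, 1-96229, 13-72181, 54-69483, 95-65716 and 37-24227.

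A few eribulin cells carried the number of these clusters. There were 43 in multiome, 39 in cluster 2 and 4 in cluster 4, and 37 in scATAC, 6 in cluster 2 and 31 in cluster 4. As in untreated cells, most were in cluster 2 in multiome and in cluster 4 in scATAC. Of the droplet barcodes that untreated and eribulin libraries shared, 1 eribulin member in multiome and 1 in scATAC carried one. The multiome droplet barcode was also that of an untreated member, and its eribulin cell had no called lineage barcode, so the lineage counts below do not rest on it.

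Those cells had a lower nucleosome signal than the untreated members. Its median was 0.661 (quartiles 0.612 and 0.736) in the 43 multiome cells, against 0.668 in the eribulin library and 0.982 in untreated members. In the 37 scATAC cells it was 0.783 (0.699 and 0.890), against 0.756 and 1.14. The 6 scATAC cells of cluster 2 stood apart with a median of 0.941, while the 31 of cluster 4 had 0.744. Apart from these 6 and the 4 multiome cells of cluster 4, at 0.750, the medians were thus close to those of their own library. Gene activity per 100 cut sites in multiome was between, at 98.9 against 97.1 in other eribulin cells and 101.7 in untreated members. On the map, 52.1% of their 15 nearest multiome cells were untreated, against 7.57% for other eribulin cells and 95.2% for untreated members.

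By lineage the eribulin members went with cluster 2. Of the 43 multiome cells 14 had a called barcode, and 12 of these (85.7%, 57.2 to 98.2%) carried cluster 2 barcodes, against 104 of 1377 other called eribulin cells (7.55%, 6.21 to 9.08%). Barcode 55-99383 gave 4 of the 14, and without it the count was 8 of 10. The 2 cells with other barcodes carried 71-88522 and 80-66251. The latter had 5 of 6 untreated cells in cluster 2 and missed the minimum of 10. Eribulin barcodes are named in 2 forms in the deposited table, and the result held in both, with 5 of 6 and 7 of 8 cells. None of the 37 scATAC members had a called barcode, so the lineage of those cells could not be read.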

How the data were processed

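Libraries were grouped by the treatment and title in the labels. Per the series' design text, the authors made peak matrices with cellranger-atac 1.2.0 (run 1) and cellranger-arc 1.0.0 (run 3) on mm10 and used Signac 1.1.1, and the submitters' processing notes also list Cell Ranger in versions 3.1.0 and 4.0.0. The integration of libraries and the calling of barcodes are not given in the sources used here. The deposited counts are cut sites in peaks and gene activity totals per cell, without normalization. Per the file headers, the nucleosome signal and the enrichment at transcription start sites are a deposited ratio per cell, the percentile columns a deposited fraction (not used), and the map axes a deposited score.

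Shares, medians over cells, map neighbours and barcode counts were computed with Python 3.11.15, pandas 2.3.3, numpy 2.4.6 and scipy 1.17.1, and figures with matplotlib 3.10.9. Depth differed between libraries, so differences were taken within a library only. Lineage values use cells with a single called barcode only. Barcode names in 3 forms were rewritten as short-part and long-part numbers, and the 490 barcodes seen were looked up in the deposited list. No test was made, since each group is 1 library and cells are not replicates. The lineage calculations were tested on simulated data. The barcodes named were the 5 with most cluster 2 cells, the 5 highest and 5 lowest shares among those with at least 20 cells, cluster 2 barcodes with eribulin cells, and the 12 most frequent in cluster 4. Others (20-92761, 37-63705, 95-81257, 34-58694, 53-85524, 50-60095, 81-1900, 71-88522, 80-66251, 6-93034 and 55-23349) are named as exceptions, extremes or neighbours of a threshold, after their values were seen. Members and lists were chosen with earlier results of these data known. Alternatives varied depth, doublets, neighbour numbers and barcode minimums.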

Additional observations from a re-analysis of the deposited data

Results flagged for a closer look

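Differences between members and the other untreated cells of the same library had opposite signs in the protocols in 3 cases, and these differences between protocols were not tested. For cluster 2, median cut sites minus those of other cells were -2798 in scATAC and 263 in multiome. The scATAC value comes from 126 cells. Enrichment at transcription start sites differed in cluster 2 by 0.0173 in scATAC and by -0.0167 in multiome, and in cluster 4 by -0.0464 in scATAC and by 0.0305 in multiome. The medians themselves lay between 4.959 and 5.05.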

How the results depend on the processing

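Over the planned and added alternatives, 51 values of the main comparisons stayed (shares and differences within the interval of the reported value, counts and ratios within 1.5 times) and 14 moved, while among the other values 126 stayed, 17 moved and 3 changed sign. The pooled share was 37.2% in multiome cells with at least 5000 cut sites and 33.7% below that, and 34.0% and 28.7% in scATAC. The difference in nucleosome signal over both clusters in multiome was 0.101 by means (0.113 by medians). With 50 nearest cells, cluster 2 made up 51.2% of the multiome neighbours of cluster 4. With at least 20 cells per barcode, 32 of 63 had most cells in cluster 2 and 24 had intervals below the others. With cells of at least the median depth, 29 of 65 had most cells there, 20 had intervals above and 17 below. Both settings leave fewer barcodes to count. With at least 5 cells, 77 of 212 barcodes had most cells in cluster 2. Without barcode 39-41529, an alternative chosen after seeing the data, 2.52% of called eribulin multiome cells carried cluster 2 barcodes (8.34% with it). Without the other barcode with most eribulin cells, or the 2 with most, also chosen after seeing the data, the other barcodes had 11.1% and 0.647% (40.1% with them). Enrichment at transcription start sites changed sign for clusters 2 and 4 pooled in multiome without doublets and multiplets (0.000123, from -0.0160) and for cluster 2 in scATAC by means (-0.0374) and within depth bins (-0.0438, from 0.0173), and the cause was not tested. No paired analysis was possible because the labels give no replicate numbers and each group is 1 library. Lineages in scATAC are limited by 29 called untreated cells.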
